A study of Mus musculus with 30 samples.

Results

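The sarcolemmal channels described here are 8 genes that set the electrical excitability of skeletal muscle fibres: the sodium channel subunits Scn4a and Scn4b, the chloride channel Clcn1, and the potassium channels Kcnn3, Kcna7, Kcnc1, Kcna5 and Kcnj2. They were picked by gene symbol from a deposited expression table, and all 8 (SCN4A, SCN4B, CLCN1, KCNN3, KCNA5, KCNA7, KCNJ2 and KCNC1 in the table's spelling) were found among its 21073 genes. The choice was made with values of this table known, and the record does not say which comparison was used, so every difference of these 8 genes that involves a day 14 group is given below as a description without a p-value. RNA-seq was performed on extensor digitorum longus (EDL), a fast hind limb muscle, from female wild type SJL/J mice. The study asked how experimental autoimmune encephalomyelitis (EAE), a mouse model of multiple sclerosis, affects this muscle at the peak of disease (day 14) and in chronic remission (day 40). EAE mice were immunized with a myelin proteolipid protein (PLP) peptide in complete Freund's adjuvant (CFA), OVA mice received ovalbumin in the same adjuvant, and Ctrl mice were not immunized. There were 5 mice in each of the 6 groups, each mouse was sampled once, and the labels give no disease score for single mice.

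A muscle action potential rises when voltage-gated sodium channels open and ends as they inactivate and potassium channels open. In skeletal muscle the resting membrane is dominated by chloride conductance, and inward rectifier potassium channels hold the resting potential close to the potassium equilibrium. Loss of chloride conductance is a known cause of myotonia, and faulty sodium channel inactivation a known cause of myotonia and periodic paralysis. Denervated or immature fibres are known to express channel isoforms that innervated adult fibres nearly lack.

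The promoters of 3 members are shown because their annotated starts leave the whole window outside exons and because they stand for the patterns described below: Kcnn3 had the largest rise, Clcn1 tended to be higher in libraries with more long transcripts, and Kcnj2 had a lower mean without separation of the groups. Each is the 250 bases before the RefSeq start on GRCm38.p6, read 5′ to 3′ on the plus strand. Capitals mark matches to CANNTG (the E-box), CAGCTG (an E-box form), CATTCC and the MEF2 consensus, searched on both strands, where every CAGCTG is also a CANNTG.
Kcnn3, chr3:89519914-89520163: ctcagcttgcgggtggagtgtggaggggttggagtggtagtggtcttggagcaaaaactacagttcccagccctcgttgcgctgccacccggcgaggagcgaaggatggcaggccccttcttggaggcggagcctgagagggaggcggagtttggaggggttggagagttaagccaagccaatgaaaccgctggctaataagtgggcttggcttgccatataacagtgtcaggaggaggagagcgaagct
Clcn1, chr6:42286435-42286684: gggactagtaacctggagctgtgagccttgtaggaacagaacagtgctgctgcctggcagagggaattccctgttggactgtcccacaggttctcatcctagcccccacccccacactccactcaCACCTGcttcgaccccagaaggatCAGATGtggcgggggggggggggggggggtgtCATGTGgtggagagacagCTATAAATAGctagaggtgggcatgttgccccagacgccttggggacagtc
Kcnj2, chr11:111065914-111066163: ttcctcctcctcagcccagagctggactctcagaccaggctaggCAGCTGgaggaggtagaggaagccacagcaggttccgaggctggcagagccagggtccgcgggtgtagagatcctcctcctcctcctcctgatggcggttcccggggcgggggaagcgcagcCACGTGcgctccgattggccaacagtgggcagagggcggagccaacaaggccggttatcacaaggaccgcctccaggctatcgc
The Kcnn3 window held no match to any of the motifs. The Clcn1 window held 3 E-boxes and CTATAAATAG, a match to the MEF2 consensus, at bases -51 to -42 from the start. Among all 8 members, 5 windows held CANNTG, as did 66.0% of 27025 promoters of the same length and 56.0% of 7251 promoters of expressed genes. The 5 include the Kcna7 window, which lies wholly in annotated exons. The MEF2 consensus was in 1 member window and in 0.518% of all promoters. CAGCTG was in the Kcnj2 window alone among the members (12.8% of all promoters), CATTCC in the Kcna5 window alone (12.6%), and the CArG consensus in none (1.4%). These matches describe letters in the windows and no binding was measured.

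Expression is given as RPKM, the reads of a gene scaled to its length and to the size of the library, so levels can be compared between genes. Log2 fold changes are differences of mean log2(RPKM + 0.1) with their standard error (SE), and they understate changes of genes near 0.1 RPKM. A gene was tested when its mean exceeded 3 RPKM in at least 1 compared group and was called at an adjusted p under 0.05 by limma with a fold change above 1.5. The depth was estimated at 18100000 to 31600000 reads per library from the values of single reads. Libraries differed in the level of long transcripts (the upper quartile of length) relative to the shortest ones (the lower quartile). This level is given as a difference of median deviations on the log2 scale from all 30 libraries. It was lower in Ctrl replicate 1 (-0.92), OVA replicate 1 (-0.75) and OVA replicate 5 (-0.61) of day 14, and higher in Ctrl replicate 3 of day 40 (0.65). The medians of day 14 were -0.28 in Ctrl, -0.008 in OVA and 0.14 in EAE mice, with overlap. A correction for transcript length therefore also acts on the difference between EAE and Ctrl mice. Libraries also differed in the level of GC-rich relative to GC-poor transcripts, on the same scale. On day 14 it was 0.155 to 0.71 in Ctrl and -0.145 to 0.0459 in EAE mice, without overlap. In OVA mice it was -0.0723 to 0.253. Transcripts of the members ran from 41.2% GC (Kcnj2) to 59.8% GC (Kcna7). No correction for GC was made, and its part in the differences was not tested. All 10 fast fibre markers exceeded 1 RPKM in every group. On day 14 their summed level was 69742 to 98602 RPKM in Ctrl, 65348 to 91650 RPKM in OVA and 53695 to 69721 RPKM in EAE mice. Single markers need not follow the sum. Myh4 had means of 5706 RPKM in Ctrl and 5820 RPKM in EAE mice, and Actn3 of 1605 and 1518 RPKM, both with overlap. The rest of the list was not compared gene by gene. The median of all tested genes was 0.11 above Ctrl and 0.11 above OVA in EAE mice on day 14 on the log2 scale, and differences of members stand against this shift.

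On day 14, the means of Scn4b and Kcna7 were 2.65-fold and 2.84-fold lower and that of Kcnn3 was 12.2-fold higher in EAE muscle than in Ctrl muscle, while the main pore genes Scn4a and Clcn1 overlapped between all groups. Of the 8 members, 2 were over 1.5-fold higher and 2 over 1.5-fold lower in EAE than in Ctrl mice without overlap of single mice, where 12.2% and 8.28% of all 8771 tested genes met the same rule. Against OVA mice, 1 member was higher and 2 were lower (8.99% and 5.56% of all 8674 tested genes). Between OVA and Ctrl mice, 1 member was higher and 0 were lower (0.224% and 0.425% of 8471 genes). On day 40 no member met the rule in any of the 3 comparisons (0.426% of all tested genes for EAE against Ctrl, 0.349% for EAE against OVA and 0.0459% for OVA against Ctrl). Without EAE replicate 4 the number lower than in Ctrl mice was 4, as Kcnj2 and Kcnc1 joined, and with a pseudocount of 1 RPKM the number higher was 1. The members counted higher, Kcnn3 and Kcna5, exceeded 3 RPKM in the higher group of each comparison alone. Kcnn3 had means of 5.90 RPKM in EAE, 0.486 RPKM in Ctrl and 0.526 RPKM in OVA mice, and Kcna5 of 3.53, 2.14 and 3.83 RPKM. For this reason, and as the choice of members may rest on these same differences, nothing is read from the shares. The EAE mice are the same 5 in both day 14 comparisons.

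**Figure D1:**
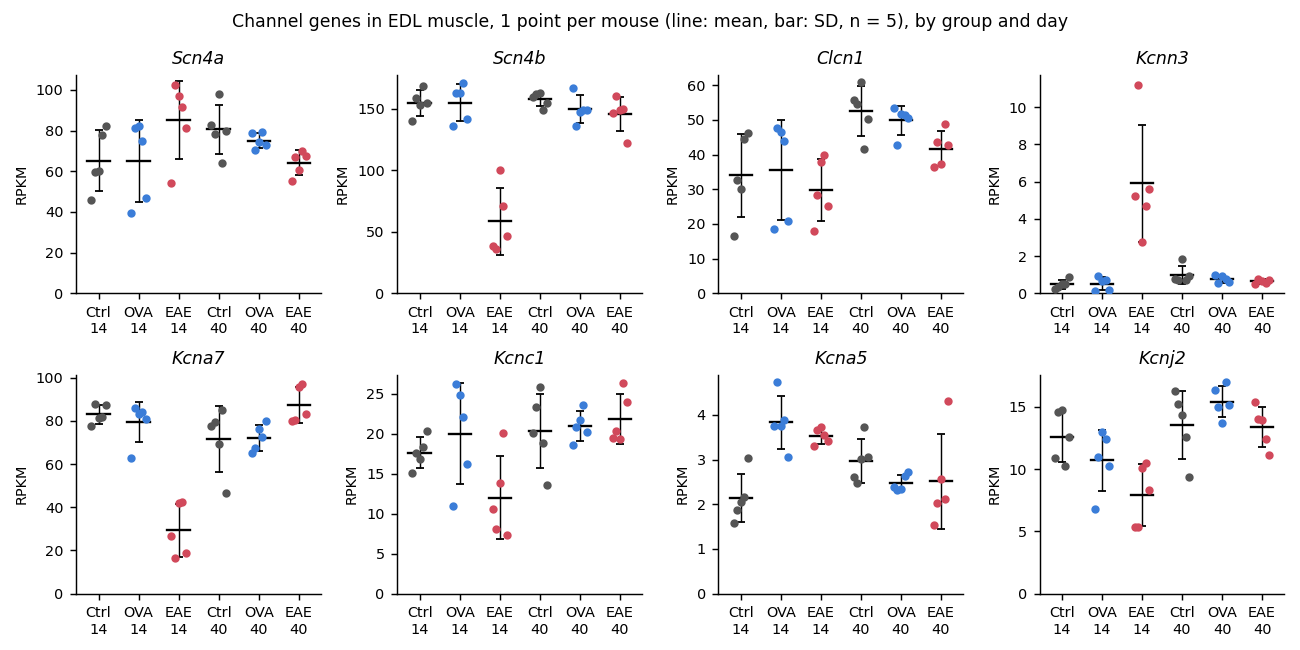
RPKM (y axis, from 0) of each channel gene in each mouse (1 point), by group and day (x axis); lines are means and bars SD over 5 mice. Scn4b and Kcna7 lay below and Kcnn3 above every other group only in EAE mice on day 14, and on day 40 all 3 overlapped the Ctrl mice.

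Scn4a encodes the pore-forming alpha subunit of the adult skeletal muscle sodium channel (Entrez gene 110880, chromosome 11, 106318592 to 106353288, minus strand, GRCm38). It was at 46.0, 59.4, 59.9, 77.9 and 82.4 RPKM in the Ctrl mice of day 14. The OVA mice of that day had 39.7, 81.4, 82.2, 74.9 and 47.0 RPKM. EAE mice had 54.0, 102, 97.0, 91.3 and 81.4 RPKM. The 3 groups overlapped, with log2 fold changes of 0.38 (SE 0.23) for EAE against Ctrl and 0.42 (SE 0.23) for EAE against OVA. The lowest values of day 14 were in the libraries that were also lowest that day in long transcripts, Ctrl replicate 1, OVA replicates 1 and 5 and EAE replicate 1. The Scn4a transcript of 6598 bases is longer than 91.9% of expressed genes. After a correction of each library for transcript length, the difference from Ctrl was 0.16 (SE 0.13), and without Ctrl replicate 1 and OVA replicates 1 and 5 the difference from OVA was 0.07 (SE 0.19). Ordered by group mean over both days, from 64.1 ± 6.16 RPKM (SD, n = 5) in EAE mice of day 40 to 85.2 ± 19.1 RPKM in EAE mice of day 14, all neighbouring groups overlapped.

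Scn4b encodes a beta subunit that modulates the gating of sodium channels (Entrez gene 399548, chromosome 9, 45138395 to 45154152, plus strand). It had the highest level of the 8 members in the control groups, at 140, 159, 153, 169 and 155 RPKM in Ctrl and 136, 163, 163, 171 and 142 RPKM in OVA mice on day 14. The EAE mice had 38.3, 36.4, 99.9, 71.5 and 46.4 RPKM. Every EAE value lay under every value of the other groups, and the highest EAE value belonged to replicate 3. The mean was 155 ± 10.5 RPKM in Ctrl, 155 ± 15.2 RPKM in OVA and 58.5 ± 27.1 RPKM in EAE mice (SD, n = 5), and the log2 fold change was -1.52 (SE 0.22) against Ctrl and -1.51 (SE 0.22) against OVA. On day 40 the EAE mice had 146, 160, 149, 150 and 123 RPKM, against 149 to 163 RPKM in Ctrl and 136 to 167 RPKM in OVA mice, and the 3 groups overlapped.

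Within each mouse, the beta subunit Scn4b was at 1.66 to 3.43 times the RPKM of the alpha subunit Scn4a in all 25 mice outside the EAE group of day 14. In the EAE mice of day 14 this ratio was 0.709, 0.356, 1.03, 0.782 and 0.570. The ratio therefore did not overlap between these 5 mice and the others. It is a ratio of RNA levels in whole muscle and says nothing of subunit numbers in the membrane.

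**Figure D2:**
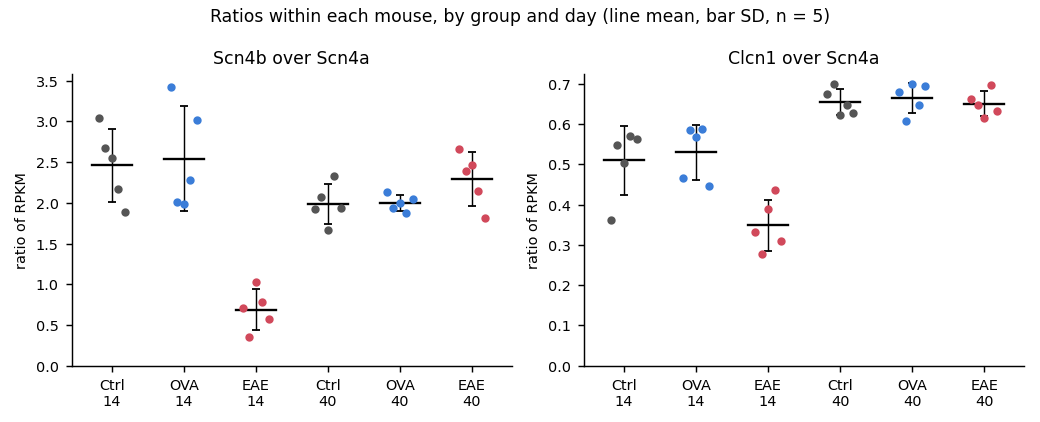
Ratios within each mouse (1 point) by group and day: RPKM of Scn4b over Scn4a (left) and of Clcn1 over Scn4a (right), both axes from 0; lines are means and bars SD over 5 mice. The EAE mice of day 14 lay between 0.356 and 1.03 in the left panel, against 1.66 or more elsewhere, and between 0.278 and 0.436 in the right panel, where all mice of day 40 were at 0.606 or more.

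Clcn1 encodes the chloride channel that carries most of the resting conductance of muscle (Entrez gene 12723, chromosome 6, 42286685 to 42315756, plus strand). Its annotated span overlaps Fam131b on the opposite strand. The library kit keeps strand, but the counting setting is not given in the sources used here, so reads of the 2 genes may not be told apart. On day 14 Clcn1 was at 16.7, 32.6, 30.2, 44.5 and 46.3 RPKM in Ctrl mice. The OVA mice had 18.5, 47.5, 46.6, 44.0 and 21.0 RPKM. EAE mice had 18.0, 28.4, 37.7, 39.8 and 25.1 RPKM. The groups overlapped fully, and the log2 fold change was -0.16 (SE 0.32) against Ctrl and -0.19 (SE 0.32) against OVA. Without Ctrl replicate 1 and OVA replicates 1 and 5, the difference from OVA was -0.68 (SE 0.23) and EAE and OVA mice no longer overlapped.

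Clcn1 and Scn4a moved together from mouse to mouse, with r = 0.93 over 30 mice after the group means were subtracted. Both tended to be higher in libraries with a higher level of long transcripts, though no correlation with that level was computed. The Clcn1 transcript of 3545 bases is longer than 62.9% of expressed genes but under 4359 bases, where their upper quartile of length begins. After the correction for transcript length, the Clcn1 difference of EAE from Ctrl on day 14 was -0.23 (SE 0.29). Clcn1 was at 0.362, 0.548, 0.504, 0.571 and 0.561 of Scn4a in the Ctrl mice of day 14. The ratio was 0.465, 0.584, 0.567, 0.587 and 0.446 in OVA mice, and 0.333, 0.278, 0.389, 0.436 and 0.309 in EAE mice. EAE and OVA mice did not overlap, and EAE and Ctrl mice overlapped through Ctrl replicate 1, the library lowest in long transcripts. OVA replicates 1 and 5, also low in long transcripts, had the lowest ratios of the OVA mice. In all 15 mice of day 40 the ratio was 0.606 to 0.700, above every mouse of day 14.

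**Figure D3:**
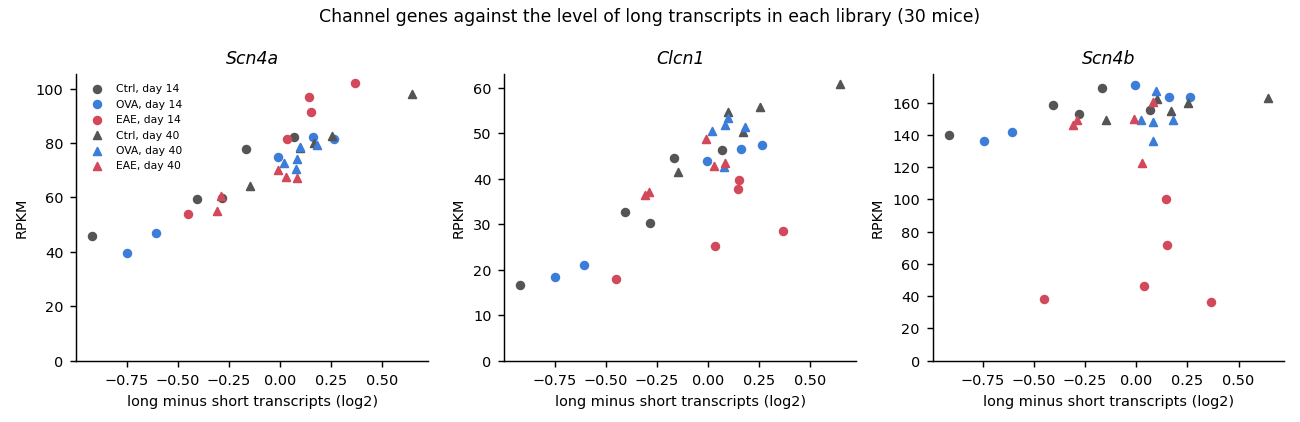
RPKM of Scn4a, Clcn1 and Scn4b (y axes, from 0) in each of 30 mice against the level of long relative to short transcripts in the same library (x axis, log2 difference of medians); colour gives the group and shape the day. Scn4a and Clcn1 tended to be higher at higher x, while the EAE mice of day 14 stood below all other mice for Scn4b at every x value.

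Among the potassium channels, Kcnn3, which encodes a small-conductance calcium-activated channel known for its appearance in denervated and immature muscle (Entrez gene 140493, chromosome 3, 89520164 to 89675132, plus strand), had the largest difference of the 8 members. On day 14 it was at 0.252, 0.331, 0.486, 0.487 and 0.871 RPKM in Ctrl and 0.147, 0.931, 0.648, 0.703 and 0.201 RPKM in OVA mice. The EAE mice had 5.25, 11.2, 2.76, 4.71 and 5.61 RPKM. Every EAE value was above all 25 values of the other groups, whose highest was 1.85 RPKM in a Ctrl mouse of day 40. The means of 5.90 ± 3.16 RPKM in EAE and 0.486 ± 0.238 RPKM in Ctrl mice (SD, n = 5) gave the ratio above, and the log2 fold change was 3.30 (SE 0.44) against Ctrl and 3.33 (SE 0.44) against OVA. With a pseudocount of 1 RPKM these were 2.12 and 2.10, since the control values lie under 1 RPKM. The estimated reads on Kcnn3 ran from about 10.2 in the lowest library to 639 in the highest, so single control values carry a large counting error. The lowest control values of day 14 were also in the libraries low in long transcripts, Ctrl replicate 1 and OVA replicates 1 and 5. Without these libraries the difference was 3.14 (SE 0.34) from Ctrl and 2.67 (SE 0.37) from OVA. On day 40 the group means were 0.998 ± 0.483 RPKM in Ctrl, 0.776 ± 0.194 RPKM in OVA and 0.641 ± 0.113 RPKM in EAE mice, under the level that was tested.

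Kcna7 encodes a Shaker-family voltage-gated channel of skeletal muscle and heart (Entrez gene 16495, chromosome 7, 45405653 to 45409763, plus strand) and was the most abundant potassium channel of the 5. It was at 77.6, 88.0, 81.3, 81.6 and 87.3 RPKM in Ctrl and 63.0, 86.1, 83.0, 84.2 and 81.1 RPKM in OVA mice on day 14. EAE mice had 26.9, 16.6, 41.9, 42.5 and 18.6 RPKM. All 5 EAE values were below all values of the other 5 groups. The mean was 83.2 ± 4.38 RPKM in Ctrl and 29.3 ± 12.4 RPKM in EAE mice (SD, n = 5). On the log2 scale EAE differed from Ctrl by -1.61 (SE 0.22) and from OVA by -1.54 (SE 0.22). On day 40 the EAE mice had 80.2, 80.2, 95.8, 97.3 and 83.3 RPKM, above all OVA mice (65.2 to 79.8 RPKM) and overlapping the Ctrl mice (46.4 to 85.1 RPKM).

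Kcnc1, a Shaw-family channel that opens and closes quickly (Entrez gene 16502, chromosome 7, 46396497 to 46438704, plus strand), was at 15.1 to 20.3 RPKM in Ctrl, 10.9 to 26.2 RPKM in OVA and 10.6, 8.10, 13.8, 20.1 and 7.32 RPKM in EAE mice on day 14. EAE and Ctrl mice overlapped through EAE replicate 4 alone, and EAE and OVA mice through EAE replicates 3 and 4. The log2 fold change was -0.65 (SE 0.26) against Ctrl and -0.77 (SE 0.26) against OVA. After correction for transcript length it was -0.91 (SE 0.22) against Ctrl and these 2 groups did not overlap. Its transcript of 7760 bases was the longest of the members.

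Kcnj2, the inward rectifier that sets the resting potential together with Clcn1 (Entrez gene 16518, chromosome 11, 111066164 to 111076821, plus strand), was at 10.9, 14.6, 14.7, 10.2 and 12.6 RPKM in Ctrl mice on day 14. EAE mice had 5.37, 5.38, 10.1, 10.5 and 8.35 RPKM, and OVA mice had 6.82 to 13.0 RPKM. The highest EAE mouse lay within the Ctrl range. The log2 fold change was -0.70 (SE 0.21) against Ctrl and -0.45 (SE 0.21) against OVA, and the corrected difference from Ctrl was -0.88 (SE 0.19), without overlap.

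Kcna5, a Shaker-family channel found in heart, smooth muscle and immune cells as well as skeletal muscle (Entrez gene 16493, chromosome 6, 126532551 to 126535412, minus strand), differed from the other members because both immunized groups were higher than Ctrl on day 14. It was at 1.57, 1.87, 2.06, 2.16 and 3.03 RPKM in Ctrl mice on day 14. OVA mice had 3.74, 4.73, 3.75, 3.88 and 3.06 RPKM, and EAE mice had 3.30, 3.66, 3.72, 3.55 and 3.42 RPKM. No immunized mouse was as low as the highest Ctrl mouse, although OVA replicate 5 was close to it. The log2 fold change was 0.83 (SE 0.16) for OVA against Ctrl, 0.73 (SE 0.15) for EAE against Ctrl and -0.10 (SE 0.15) for EAE against OVA. On day 40 the means were 2.97 ± 0.492 RPKM in Ctrl, 2.48 ± 0.183 RPKM in OVA and 2.51 ± 1.07 RPKM in EAE mice, and one EAE mouse had 4.31 RPKM. The Ctrl mice of day 40, at 2.47 to 3.73 RPKM, overlapped both immunized groups of day 14. Of the 6 groups, the Ctrl mice of day 14 had the lowest mean.

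Markers of other cell types moved with these groups. The summed level of 8 neutrophil genes was 3.47 to 9.43 RPKM in Ctrl, 63.4 to 227 RPKM in OVA and 201 to 392 RPKM in EAE mice on day 14, with 3, 6 and 6 of the 8 above 1 RPKM. The 9 smooth muscle and pericyte genes summed to 121 to 175 RPKM in Ctrl, 165 to 286 RPKM in OVA and 131 to 156 RPKM in EAE mice, and 8 of them exceeded 1 RPKM in Ctrl mice. The 9 fibroblast genes summed to 1267 to 1672 RPKM in Ctrl, 840 to 1126 RPKM in OVA and 402 to 654 RPKM in EAE mice. The 9 macrophage genes summed to 289 to 439 RPKM in Ctrl and 139 to 310 RPKM in EAE mice, and the 10 endothelial genes to 160 to 214 RPKM in Ctrl and 133 to 174 RPKM in EAE mice. The 8 slow fibre genes summed to 1763 to 2935 RPKM in Ctrl and 1039 to 1799 RPKM in EAE mice, the 8 Schwann cell genes to 114 to 123 and 79.6 to 120 RPKM, and the 5 erythrocyte genes found to 189 to 684 and 26.5 to 189 RPKM. Single genes need not follow these sums. The slow fibre gene Myh7 had means of 102 RPKM in Ctrl and 90.2 RPKM in EAE mice, with overlap. The endothelial genes Pecam1 (31.0 and 28.7 RPKM) and Cdh5 (18.0 and 16.9 RPKM) also overlapped. Of 7 nerve axon genes, 1 exceeded 1 RPKM in each group of day 14, and Snap25 was listed at 0 in all OVA and EAE mice of that day. Their part in the results for the channel genes was not tested. In these bulk samples a change in the number of cells of a type and a change of RNA per cell cannot be told apart.

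Summed over the 5 potassium channel members, RPKM was 105 to 124 in Ctrl, 84.7 to 129 in OVA and 43.3 to 81.4 in EAE mice on day 14. Kcna7 made up 70.3% to 73.7% of this sum in Ctrl and 66.3% to 74.4% in OVA mice, and 36.9% to 58.0% in EAE mice. Kcnn3 made up 0.239% to 0.702% in Ctrl and 3.81% to 24.9% in EAE mice. On day 40 the sum was 117 to 139 RPKM in EAE mice, 73.3 to 121 RPKM in Ctrl and 103 to 118 RPKM in OVA mice. Kcna7 made up 67.5% to 72.4% of it in EAE, 60.6% to 70.3% in Ctrl and 62.3% to 67.4% in OVA mice.

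The 5 EAE mice of day 14 differed among themselves in the same order for several members. Replicates 3 and 4 had the 2 highest values of Scn4b, Kcna7, Clcn1, Kcnj2 and Kcnc1, and the 2 lowest values of Kcnn3. Over 30 mice, Scn4b and Kcna7 had r = 0.92, and 0.69 after group means were subtracted. Scn4b and Kcnn3 had r = -0.82, and -0.19 after group means were subtracted. These correlations are on log2(RPKM + 0.1), and mice of a group share its mean and libraries differ in their level of long transcripts.

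The genes whose pattern over the 30 mice was most like each member were taken from 9048 genes above 3 RPKM in a group. For Scn4b these were Lynx1 (r = 0.98, and 0.90 after group means were subtracted) and Gpd1, glycerol-3-phosphate dehydrogenase (0.97 and 0.94), and for Kcna7 Eno3, the muscle enolase (0.95 and 0.77), and Gpd1 (0.95 and 0.77). For Kcnn3 they were Gprc5b (0.97 and 0.86) and Rapgef1 (0.96 and 0.86). Scn4a was most like Huwe1 (0.96 and 0.96) and Atf7ip (0.96 and 0.95), and Clcn1 most like Sec14l5 (0.96 and 0.94) and Asap2 (0.96 and 0.94). Likeness was weaker for Kcnc1 (Rasgrp3, 0.91 and 0.86; Rps6ka2, 0.89 and 0.81), Kcnj2 (Tmc7, 0.85 and 0.74; Capn3, 0.85 and 0.68) and Kcna5 (Lrrc8a, 0.78 and 0.60; Noct, 0.77 and 0.61). Gpd1 was at 257 RPKM in Ctrl and 97.0 RPKM in EAE mice on day 14, and Eno3 at 4291 and 1586 RPKM.

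On day 40 no member was called in any comparison by limma, where 0.46% of all tested genes were called for EAE against Ctrl, 0.209% for EAE against OVA and 0% for OVA against Ctrl. Of the 8 members, 6 were tested, as Kcnn3 and Kcna5 were under 3 RPKM. The sodium channel Scn4a was at 55.1, 67.2, 60.5, 69.9 and 67.7 RPKM in EAE mice, against 64.2 to 98.0 RPKM in Ctrl and 70.4 to 79.4 RPKM in OVA mice. The highest EAE mouse was just under the lowest OVA mouse, and EAE and Ctrl mice overlapped. The log2 fold change against Ctrl was -0.32 (SE 0.09, adjusted p = 0.0666, 95% interval -0.52 to -0.12), and against OVA it was -0.23 (SE 0.09, adjusted p = 0.221). Corrected for transcript length, the difference from Ctrl was -0.17 (SE 0.05, adjusted p = 0.0956), and over all alternatives the adjusted p ran from 0.0111 (without Ctrl replicate 4) to 0.419 with a fold under 1.5.

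Clcn1 was at 36.4, 43.5, 37.2, 48.8 and 42.7 RPKM in the EAE mice of day 40, against 41.5 to 60.8 RPKM in Ctrl and 42.7 to 53.3 RPKM in OVA mice. The groups overlapped. Its log2 fold change was -0.33 (SE 0.10, adjusted p = 0.0746, 95% interval -0.55 to -0.12) against Ctrl and -0.26 (SE 0.10, adjusted p = 0.205) against OVA. Kcna7 was higher in EAE than in OVA mice without overlap, with a log2 fold change of 0.27 (SE 0.13, adjusted p = 0.287), and its difference from Ctrl was 0.31 (SE 0.13, adjusted p = 0.135). Over all alternatives the adjusted p against Ctrl ran from 0.0134 to 0.505 for Clcn1 and from 0.0484 to 0.437 for Kcna7, lowest without Ctrl replicate 4 and with a fold under 1.5. For Scn4b the difference of EAE from Ctrl was -0.12 (SE 0.07, adjusted p = 0.269, 95% interval -0.27 to 0.03). The 95% intervals were -0.26 to 0.27 for Kcnj2 (adjusted p = 0.995) and -0.17 to 0.42 for Kcnc1 (adjusted p = 0.552). Between OVA and Ctrl mice, the 6 tested members had an adjusted p of 0.999 and differences from -0.09 (Scn4a) to 0.21 (Kcnj2).

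**Figure D4:**
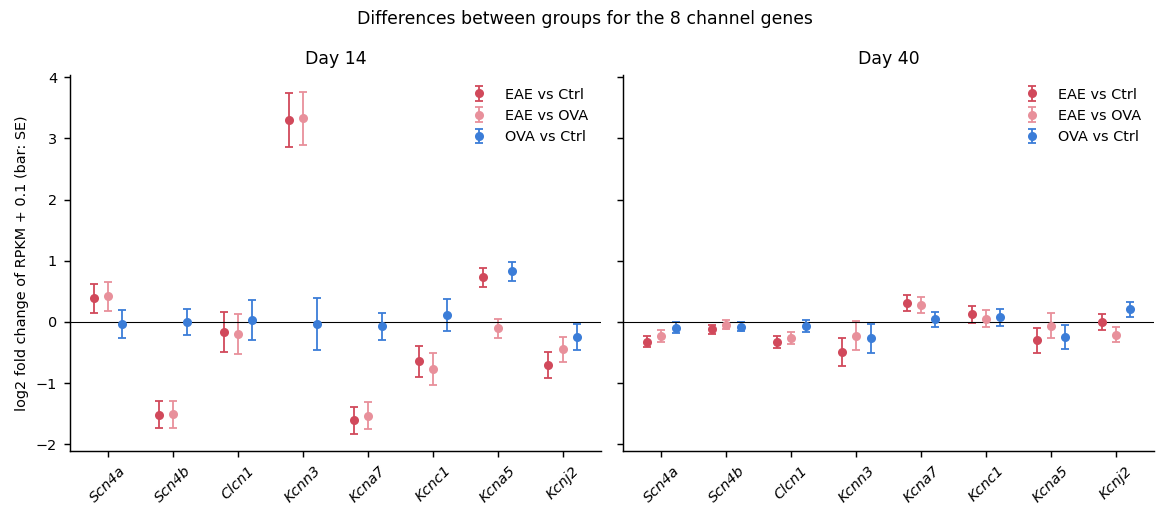
Log2 fold change of RPKM + 0.1 (y axis) for each channel gene (x axis) in 3 comparisons on day 14 (left) and day 40 (right); points are differences of group means and bars their SE, from 5 mice a group. On day 14 Kcnn3 stood at 3.30 and 3.33 and Scn4b and Kcna7 between -1.61 and -1.51 in the comparisons with EAE, and on day 40 the member farthest from 0 was Kcnn3 at -0.49.

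The other channel genes reported are 124 sodium, chloride and potassium channel and sodium pump genes, listed by family with earlier results of these data known. Only 24 of them exceeded 3 RPKM in a group, and 48 were under 0.1 RPKM in every group. In EAE against Ctrl mice on day 14, 22 were tested, of which 3 rose (Kcnq5, Kcne1l and Abcc9) and 2 fell (Kcng4 and Fxyd2). Without Ctrl replicate 1 or without Ctrl replicate 2 the number that fell was 1. The 5 called are 22.7% of those tested, beside 26.4% of all tested genes. Against OVA, 2 rose (Kcnq5 and Kcne1l) and 3 fell (Kcng4, Kcnab1 and Fxyd5), which is 22.7% of 22, beside 20.3% of all tested genes. Among those called, Kcne1l in both comparisons, Fxyd2 against Ctrl and Kcnab1 against OVA passed the level for testing through the higher group alone. The same rule for testing held for all genes. The median log2 fold change of those tested was -0.03 against Ctrl and 0.01 against OVA, where the median of all tested genes was 0.11 in both. Between OVA and Ctrl mice 0 of 21 were called, with 3 at an unadjusted p under 0.05, beside 0.142% of all tested genes called.

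Among 36 other voltage-gated potassium channel alpha subunits, Kcnc4, a Shaw-family channel like the member Kcnc1, at 70.0 ± 8.42 RPKM in Ctrl and 79.2 ± 9.27 RPKM in EAE mice, was not called (adjusted p = 0.2). Kcnq5, which carries M-type current, was at 3.80 ± 1.35 RPKM in Ctrl and 12.8, 18.2, 11.1, 15.8 and 15.0 RPKM in EAE mice (log2 fold change 2.00, SE 0.25, adjusted p = 2.04e-05). Kcng4, a modifier subunit that forms no channel alone, fell from 12.6 ± 2.28 RPKM in Ctrl to 3.16, 2.01, 6.81, 7.58 and 2.74 RPKM in EAE mice (log2 fold change -1.65, SE 0.29, adjusted p = 0.000371). Kcng4 and the member Kcna7 were lower and Kcnq5 higher in EAE than in Ctrl mice without overlap. Among the 14 auxiliary subunits, Kcne1l was at 1.40 ± 0.178 RPKM in Ctrl and 5.00 ± 2.41 RPKM in EAE mice (log2 fold change 1.61, SE 0.29). It passed the level for testing through the EAE mean alone, so no p is given for it. Kcnab1, a beta subunit, was lower in EAE than in OVA mice at 1.16 ± 0.558 against 3.15 ± 0.367 RPKM (log2 fold change -1.45, SE 0.23). It passed that level through the OVA mean alone, so no p is given for this comparison. Against Ctrl (2.72 ± 0.593 RPKM) Kcnab1 was under the level for testing, with a log2 fold change of -1.22 (SE 0.23). By limma it was called lower when a mean above 1 RPKM was enough for testing (adjusted p = 0.000532).

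Abcc9, the regulatory subunit of ATP-sensitive potassium channels, rose from 21.2 ± 5.62 to 37.2 ± 9.12 RPKM against Ctrl, with overlap (log2 fold change 0.82, SE 0.27, adjusted p = 0.0196), and its call was lost without Ctrl replicate 1 or EAE replicate 2 (adjusted p up to 0.0572 by limma over single mice left out). Its pore partner Kcnj11 was at 55.9 ± 2.45 and 69.6 ± 11.0 RPKM (log2 fold change 0.30, SE 0.11, adjusted p = 0.0306), under the 1.5-fold threshold, as was Kcnj8 at 12.5 ± 2.04 and 9.55 ± 0.840 RPKM (log2 fold change -0.38, SE 0.12, adjusted p = 0.0196). Kcnj12, an inward rectifier like the member Kcnj2, was at 14.5 ± 3.37 and 14.1 ± 2.55 RPKM (log2 fold change -0.02, SE 0.18, adjusted p = 0.94). In the CLC family none of 4 tested genes was called, and Clcn3, Clcn4 and the Clcn7 partner Ostm1 had log2 fold changes of 0.34, 0.26 and -0.22. Clcn4 (adjusted p = 0.0195 by limma, without overlap) and Ostm1 (adjusted p = 0.0342, with overlap) missed only the 1.5-fold threshold. None of the 14 K2P background potassium channel genes was tested, and none of 2 tested calcium-activated subunit genes was called.

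Of 13 sodium pump genes, 7 were tested. The pump regulator Fxyd1 was at 515 ± 158 RPKM in Ctrl and 379 ± 69.9 RPKM in EAE mice (log2 fold change -0.41, SE 0.19, adjusted p = 0.0875). Fxyd2 fell from 3.14 ± 1.21 to 1.02 ± 0.372 RPKM (log2 fold change -1.52, SE 0.32). It passed the level for testing through the Ctrl mean alone, so no p is given for it, and it was no longer tested without Ctrl replicate 1 or 2. Fxyd5 was lower than in OVA mice, at 12.7 ± 4.03 against 20.0 ± 4.31 RPKM (log2 fold change -0.68, SE 0.20, adjusted p = 0.0143), a call lost without OVA replicate 5 or EAE replicate 2. Among the others, the beta subunits Atp1b1, Atp1b2 and Atp1b3 had log2 fold changes against Ctrl between -0.34 and -0.04, and none was called. The regulator Fxyd6 was lower in EAE than in Ctrl mice without overlap, but under the 1.5-fold threshold (log2 fold change -0.40, SE 0.14, adjusted p = 0.0306 by limma).

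**Figure D5:**
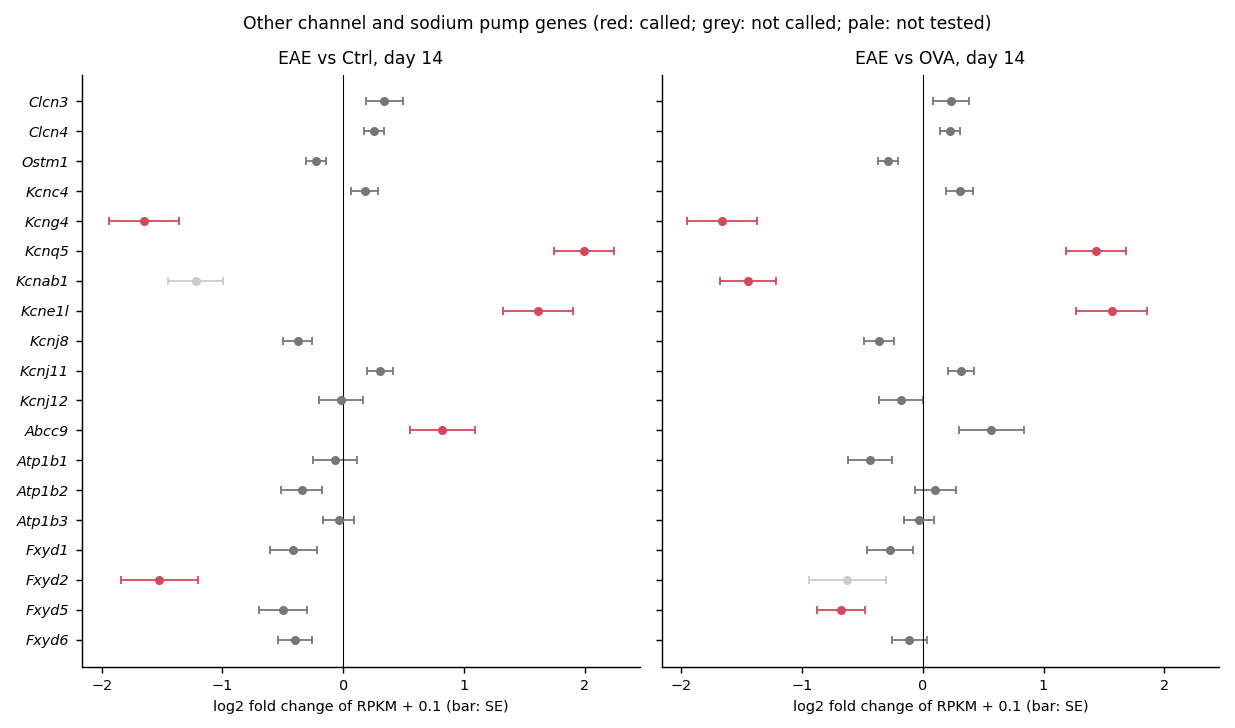
Log2 fold change of RPKM + 0.1 (x axis, bars SE) of 19 other channel and sodium pump genes (y axis) in EAE mice of day 14 against Ctrl (left) and OVA mice (right), with 5 mice a group. Red points passed the test with a fold above 1.5, grey points did not, and pale points were under the level that was tested. Of the red points, Kcne1l in both panels, Fxyd2 (left) and Kcnab1 (right) passed that level through the higher group alone. Against Ctrl, Kcnq5 stood farthest above 0 at 2.00 and Kcng4 farthest below at -1.65.

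On day 40 none of the other channel genes was called by limma, of 22 tested for EAE against Ctrl, 21 for EAE against OVA and 22 for OVA against Ctrl, with 8, 3 and 2 at an unadjusted p under 0.05. Without Ctrl replicate 4 or EAE replicate 2, 1 gene, Clcn6 (named after its values were seen), was called lower in EAE than in Ctrl mice. Kcnq5 was at 5.40 ± 1.20 RPKM in EAE and 5.57 ± 1.18 RPKM in Ctrl mice, and Kcng4 at 12.4 ± 2.31 and 13.0 ± 2.59 RPKM. The change of the EAE difference between the 2 days was itself tested in a model of all 30 mice, and by limma it was -2.04 for Kcnq5 (adjusted p = 1.37e-05) and 1.59 for Kcng4 (adjusted p = 0.000539), where 48.5% of 9049 genes tested had an adjusted p under 0.05. Both genes were called on day 14, and the test of the change uses the same day 14 values.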

How the data were processed

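RNA of 30 EDL muscles was sequenced as paired-end, strand-preserving poly(A) libraries. The authors aligned reads to mm10 with Subread, summarized them over RefSeq transcripts with featureCounts and quantified RPKM. The deposited table holds log2 values, log2(RPKM + 1) with a placeholder for genes without reads. This was read from the values, as no file header says so: 67.4% of 1066 low values fell within 0.1 read of a whole number on this scale, against 18.2% taken as RPKM. Values were converted back to RPKM. The table holds no counts, so the study's EdgeR test was replaced by limma 3.58.1 (R 4.3.3) on log2(RPKM + 0.1) with a mean-variance trend and Benjamini-Hochberg adjustment over all tested genes, fitted to the 15 libraries of each day. Genes needed a mean above 3 RPKM in a compared group, and calls an adjusted p under 0.05 and a fold above 1.5. The scripts were tested on simulated data. Read depth per library was estimated from the smallest steps.

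Members and lists were chosen with earlier results of these data known. Some listed genes are not reported here, and counts over the lists leave them out. Named were all 8 members, listed genes called in a comparison or above 10 RPKM in a group, and the 2 genes most like each member. Gene spans came from GENCODE vM21 on GRCm38, the assembly of mm10, and promoters from RefSeq on GRCm38.p6, where all 8 matched. Promoter windows of Scn4a, Scn4b and Kcna7 overlapped annotated exons and are not shown. At most 24.4% of values were equal between any 2 libraries, where 25.8% of all values were at 0, so no library was a copy. Whether mice of a group came from separate litters or cages is not given. Alternatives were pseudocounts, filters, scaling, the mice in the fit, a replicate block, no fold threshold and each mouse left out; a correction for transcript length and a fit without 3 libraries low in long transcripts were chosen after seeing the data.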

Additional observations from a re-analysis of the deposited data

Results flagged for a closer look

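In groups of 5 mice, 1 mouse stood far from the other 4 in 12 of 162 groups of the 8 members and 19 other named genes, where chance flags about 1 in 20. Among the members these were Clcn1 at 42.7 RPKM in OVA mice of day 40, Kcnn3 at 1.85 RPKM in Ctrl mice of day 40 (replicate 3, the library highest in long transcripts) and Kcna7 at 63.0 RPKM in OVA mice of day 14 (replicate 1, a library low in long transcripts). Among the others, on day 14, they were Kcnab1 at 2.13 RPKM and Fxyd1 at 498 RPKM in EAE mice, Kcnj12 at 8.52 RPKM, Atp1b1 at 80.2 RPKM and Fxyd5 at 24.6 RPKM in Ctrl mice, and Fxyd5 at 27.4 RPKM in OVA mice. On day 40 they were Clcn3 at 12.9 RPKM in OVA mice, and Clcn4 at 16.8 RPKM and Atp1b1 at 102 RPKM in Ctrl mice.

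The difference of EAE from Ctrl changed between day 14 and day 40, by limma's test of the change itself in all 30 mice (day 40 minus day 14, on the log2 scale), for 11 of the 19 named genes that are no members. Of all 9049 genes tested, 48.5% passed the same test, and some named genes were named because they were called on day 14. It became lower for Kcnq5 (-2.04), Kcne1l (-1.34, above the level for testing through EAE mice of day 14 alone), Abcc9 (-1.22), Clcn3 (-0.51) and Clcn4 (-0.47). It became higher for Kcng4 (1.59), Fxyd2 (1.40, above that level through Ctrl mice of day 14 alone), Kcnab1 (0.87), Fxyd1 (0.63), Kcnj8 (0.60) and Fxyd6 (0.47). For the members no such test is given, since day 14 values may have chosen them.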

How the results depend on the processing

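The log2 fold changes of Scn4b, Kcnn3 and Kcna7 in EAE mice of day 14 kept their direction under all 17 alternatives, from -1.74 to -1.37, 2.12 to 3.53 and -1.77 to -1.43 against Ctrl; only Kcnn3 moved by more than the spread, to 2.12 against Ctrl and 2.10 against OVA with a pseudocount of 1, which left 1 member higher than Ctrl (Kcnn3). Members lower than Ctrl rose from 2 to 4 with the correction for transcript length and without EAE replicate 4, and those lower than OVA from 2 to 5 without the 3 libraries low in long transcripts; with single mice left out these counts ran from 2 to 4 against Ctrl. Other channel genes called higher than Ctrl were 6 with a mean above 1 RPKM, 6 with no filter and 5 with no fold threshold, and those called lower were 6 with a mean above 1 RPKM, 11 with no filter, 6 with no fold threshold, 1 without the 3 libraries and 1 without Ctrl replicate 1 or 2 (1 to 3 over all mice left out). Against OVA, 4 were called higher with a mean above 1 RPKM, 4 with no filter and 5 with no fold threshold, and 8 were called lower with no filter and 5 with no fold threshold. Abcc9 and Fxyd5 each lost a call in at least 1 of these fits, and Fxyd2 was no longer tested without Ctrl replicate 1 or 2 or without the 3 libraries. On day 40, Clcn6 was called lower than Ctrl with no fold threshold and without Ctrl replicate 4 or EAE replicate 2 (0 to 1 called over mice left out). Signs turned for differences near 0, on day 40 for Kcnj2 EAE against Ctrl (-0.12 to 0.074 over mice left out), Kcnc1 EAE against Ctrl (-0.010 to 0.22) and against OVA (-0.016 to 0.096), Scn4b EAE against OVA (0.029 with median-of-ratios scaling, 0.028 with the length correction, -0.080 to 0.0169 over mice left out), and Kcna7 (-0.11 to 0.11) and Kcnc1 (-0.063 to 0.17) OVA against Ctrl, where Ctrl replicate 5 turned the sign. They also turned, by less than the spread between mice, on day 40 for Kcna5 EAE against OVA and on day 14 for Clcn1 EAE against Ctrl and for Scn4a, Scn4b, Clcn1, Kcnn3 and Kcna7 OVA against Ctrl (Kcnn3 from -0.03 to 0.47 without the 3 libraries). The cause was not tested.

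Whether replicate numbers pair the samples was not settled. At most 3 of 5 same-numbered pairs correlated above 0.1 in a comparison. On day 14, replicate 1 was the library lowest in long transcripts in each group (Ctrl -0.92, OVA -0.75, EAE -0.45). With the replicate block, log2 fold changes against Ctrl on day 14 were -1.52 for Scn4b, 3.30 for Kcnn3 and -1.61 for Kcna7, and no count above moved by over 1.5 times. The SE of these differences rose for Kcna5 (0.154 to 0.165). It fell for the other members, as for Clcn1 (0.325 to 0.200) and Scn4a (0.231 to 0.155). Levels near 0 rest on few reads: the estimate was 10.2 reads for Kcnn3 in the library with the fewest.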
